A study of Mus musculus with 3 samples.

Results

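Suprabasal keratinocytes are the epidermal cells above the basal layer, and 134 of them were found among 32377 retained cells of mouse dorsal skin. They were chosen cell by cell from the counts: at least 500 detected genes and at most 10% mitochondrial UMIs (unique molecular identifiers, 1 for each captured transcript), at least 1% of UMIs from Krt1 and Krt10 together and no less than from Krt5 and Krt14, at least 1 Krtdap UMI, fewer than 3 of the 6 upper follicle genes Krt79, Cst6, Defb6, Klk7, Alox12e and Defb1, and 0 UMIs of the leukocyte gene Ptprc. The control library (CON) held 111 of them among 11453 retained cells, the irradiated library (UV) 10 among 11027, and the library irradiated and treated with ruxolitinib (Rux) 13 among 9897. All 3 libraries came from C57BL/6J wild-type mice described as female and 8 weeks old, by droplet single-cell RNA sequencing of transcript ends from dissociated full-thickness skin. The paper gives this age where it reports the purchase of the mice, and does not state the age at sampling. UV skin was irradiated on alternate days over 12 weeks, with an intensity of 0.60 mW/cm2 for UVA and of 3.5 mW/cm2 for UVB, and Rux skin had the same exposure followed each time by a 1.5% ointment of ruxolitinib, an inhibitor of the kinases JAK1 and JAK2. CON skin was not irradiated, and per the study's description CON and UV received the ointment base alone. Per the paper, skin was taken a day after the final exposure. Each condition was 1 library, and how many mice each library held is not given in the sources used here, so no difference between conditions has a replicate check, no test was possible, and every interval below is a 95% interval for counting error only.

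When a basal keratinocyte leaves the basement membrane it exchanges the keratin pair Krt5 and Krt14 for Krt1 and Krt10, strengthens its desmosomes and begins to make barrier proteins and lipids. Higher up, granular cells add loricrin (Lor), filaggrin (Flg) and related proteins of the cornified envelope. Injured or inflamed epidermis turns on a further keratin set (Krt6a, Krt6b, Krt16, Krt17) and small proline-rich proteins. Cytokine receptors of keratinocytes signal through JAK kinases to STAT factors, which bind the interferon-gamma-activated site (GAS) and switch on, among others, Irf1 and the feedback inhibitor Socs3.

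Several properties of the libraries bear on what follows. The female-specific transcript Xist had 19, 14 and 13 UMIs over all retained cells of CON, UV and Rux, against 17936, 15236 and 15749 UMIs of the Y-linked gene Ddx3y, so in all 3 libraries the RNA went against the sex in the sample description. The CON and UV libraries shared 36 cell barcodes, CON and Rux 26, and UV and Rux 30, and no barcode was a suprabasal keratinocyte in more than 1 library. The retained cells had a median of 8205 UMIs in CON, 7945 in UV and 9838 in Rux, while the suprabasal keratinocytes had medians of 14344, 7954 and 24449 and summed to 1758644, 125198 and 359221 UMIs. A single cell gave 32.2% of the UV sum and 29.2% of the Rux sum, but no more than 2.74% of the CON sum.

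The name of the population was checked against its markers. Krt1, Krt10 and Krtdap were part of the rule. Sbsn (suprabasin) and Dmkn (dermokine), secreted proteins of the differentiating layers that the rule did not use, were detected in 105 and 111 of the 111 CON cells, in 10 and 9 of the 10 UV cells and in 13 and 11 of the 13 Rux cells. All 14 listed suprabasal markers outside the rule had UMIs in each library, and summed to 22006 CPM (UMIs of a gene per 1e+06 UMIs of the cells) in CON, 29449 in UV and 25238 in Rux, with Lgals7 (galectin-7) the most abundant. The hair follicle stem-like genes Lgr5 and Lhx2 were at 0 UMIs in UV and Rux, while the 6 genes of that list summed to 30.1 CPM in CON, 95.8 in UV and 100.2 in Rux, with Postn the most abundant at 11.9, 79.9 and 86.3 CPM. The T cell genes Cd3e, Cd3g and Trdc were at 0 in UV and Rux and together had 5 UMIs with Trdc at 0 over the 111 CON cells. Fibroblast markers summed to 526, 256 and 721 CPM in CON, UV and Rux with Dcn or Col1a2 the most abundant, and 114 of the 144 Dcn UMIs of Rux and 107 of the 289 of CON lay in single cells. Leaving out the cells with at least 0.5% of UMIs from 6 dermal genes removed 1 CON cell and none from UV or Rux. The Rux cell with 114 Dcn UMIs had 0.452% from these genes, just under that limit, and so stayed. Removing likely doublets left 12 Rux cells and put the Dcn log2 ratio of Rux over CON at -0.17 against 1.29. The erythrocyte genes summed to 151 CPM in CON, and the melanocyte, myeloid, endothelial and muscle lists to less in every library. The part of other cells in the results below was not tested.

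Keratinocyte transcripts were also found in other cells. Whether free RNA in the droplets or doublets carried them there was not tested. Of the fibroblasts, which do not make it, 34.7% in CON, 17.4% in UV and 30.4% in Rux had a Krt10 UMI at median depths of 8254, 8166.5 and 13094.5 UMIs, and their Krt10 level was 71.3, 29.5 and 40.0 CPM. For Krt6a the fibroblast shares were 2.40%, 3.06% and 7.43%, and for Lor 7.92%, 1.10% and 4.67%.

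Suprabasal keratinocytes were scarcer among the retained cells of both irradiated libraries. They were 0.969% of CON cells (95% Clopper-Pearson interval 0.798 to 1.17), 0.0907% of UV cells (0.0435 to 0.167) and 0.131% of Rux cells (0.0700 to 0.225). The intervals of UV and Rux overlapped and neither reached that of CON. Basal keratinocytes, defined by Krt5 and Krt14, numbered 468, 85 and 145, or 4.09%, 0.771% and 1.47% of retained cells, and upper follicle keratinocytes 199, 61 and 86, or 1.74%, 0.553% and 0.869%. Within these 3 keratinocyte classes together, suprabasal cells were 14.3% in CON (11.9 to 16.9), 6.41% in UV (3.12 to 11.5) and 5.33% in Rux (2.87 to 8.94), with 4.22, 8.50 and 11.2 basal cells for each suprabasal cell. Fibroblasts were 9.81%, 19.0% and 19.0% of retained cells, so all 3 keratinocyte classes had lower shares in the 2 libraries with more fibroblasts, and the part of this in the difference was not tested. Between UV and Rux the fibroblast share was alike while the basal and upper follicle shares were higher in Rux. A share of dissociated cells does not tell fewer cells in the tissue from fewer cells released.

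**Figure D1:**
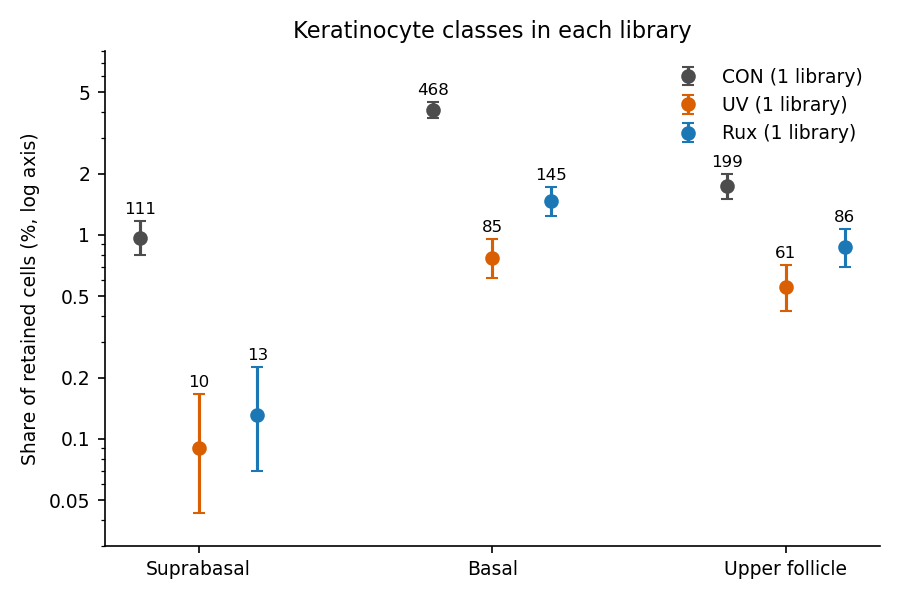
Share of retained cells (percent, logarithmic axis) in each of 3 keratinocyte classes, with 1 point for each library, its 95% Clopper-Pearson interval and its number of cells. The CON library lies above UV and Rux in all 3 classes, and the 10 UV and 13 Rux suprabasal cells have overlapping intervals.

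Cells near the limits of the rule were most numerous in CON, which also had the most members. The member with the least Krt1 and Krt10 had 1.01% of UMIs from them in CON, 1.44% in UV and 1.23% in Rux, and 12 CON cells lay between 1% and 1.2%, while 7 CON cells and 1 Rux cell that met every other condition lay between 0.8% and 1%. The count of upper follicle genes removed more cells than any other later step, 97 in CON, 5 in UV and 21 in Rux. Exactly 2 of the 6 genes were carried by 63 of 111 members in CON, 3 of 10 in UV and 6 of 13 in Rux. Cells just outside that carried 3 numbered 44 in CON, 4 in UV and 8 in Rux. The limit on these genes thus ran through a continuous range and not through a gap.

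Within CON the suprabasal keratinocytes differed in how much basal keratin they still held. Of the 111 cells, 40 had at least 0.25% of their UMIs from Krt5 and Krt14, with a median of 0.633%, and the other 71 had a median of 0.0185%. The limit was placed after seeing the values, and 19 cells lay between 0.1% and 0.5%. The 40 cells had more UMIs, with a median of 16640 against 14069. They held 773391 UMIs against 985253 in the other 71. The 2 deepest CON cells, with 48145 and 43664 UMIs, were among the 40. Whether doublets of basal and suprabasal cells lay among them was not tested. In UV 5 of 10 cells and in Rux 7 of 13 cells were above the same limit. The following differences describe a division made on the same cells and carry no test.

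The CON cells that kept basal keratin also kept basal surface genes. Cdh13, a cadherin without a transmembrane domain, was at 211 CPM in them and 14.2 CPM in the others, a log2 ratio of 3.84 (95% counting interval 3.1 to 4.79). Itgb1, the integrin chain through which basal cells hold the matrix, was at 181 and 31.5 CPM (2.51, 1.95 to 3.14), and Itgb4 of the hemidesmosome at 99.6 and 25.4 CPM. Krt15, a basal keratin, was at 1951 and 636 CPM. Nrg1, a ligand of the ERBB receptors, had 156 of its 179 UMIs here, at 202 and 23.3 CPM. Of the 18 basal and hemidesmosome genes listed, 9 could be compared, all 9 were higher in these cells, and 4 were at least 2-fold higher. All 25 immediate-early genes compared were also higher, 7 of them at least 2-fold. Fibroblast markers lay the same way, with Col1a1 at 186 and 84.2 CPM, Col1a2 at 140 and 72.1 and Dcn at 203 and 134. Their part in the difference was not tested. Among the 3145 genes that could be compared 2.23% were at least 2-fold higher and 1.05% at least 2-fold lower. The median log2 ratio over these 3145 genes was 0.03. It was 0.89 over the 9 basal and hemidesmosome genes and 0.49 over the 25 immediate-early genes.

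The cells with little basal keratin were richer in products of the differentiating layers. Krt77, a keratin of suprabasal cells, was at 2216 CPM in them and 846 CPM in the cells with basal keratin (log2 ratio of the second to the first -1.39, -1.52 to -1.26). Sbsn was at 1182 and 485 CPM, Elovl4, the elongase that makes the very long fatty acids of barrier ceramides, at 260 and 102 CPM, and Calm4, a calmodulin-like protein of the epidermis, at 3087 and 1537 CPM. The Skint genes, which encode immunoglobulin-family proteins of mouse epidermis, lay the same way, with Skint5 at 115 and 14.2 CPM and Skint9 at 165 and 46.5 CPM. Of 11 suprabasal markers outside the rule that could be compared, 10 were lower in the cells with basal keratin. Of these 4 were at least 2-fold lower (background 1.05%), and the median of the 11 was -0.91 beside 0.03 over all genes.

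**Figure D2:**
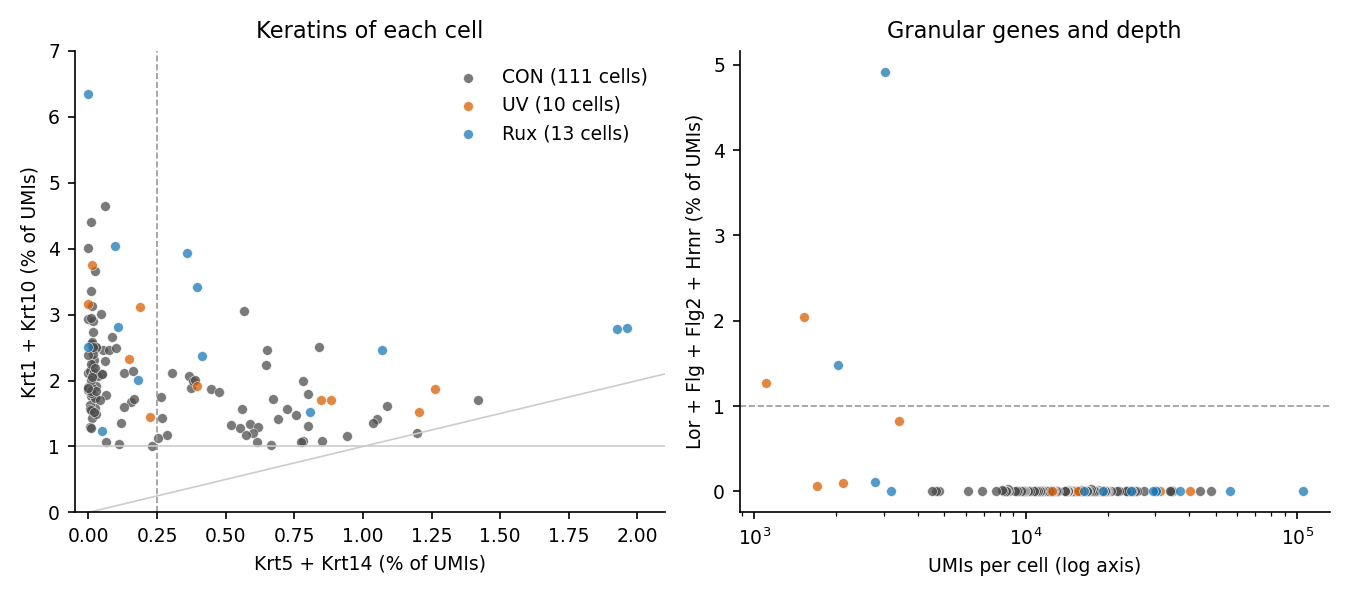
Each point is 1 suprabasal keratinocyte of CON (111), UV (10) or Rux (13). On the left, percent of UMIs from Krt1 and Krt10 against Krt5 and Krt14, with grey lines at the rule's limits and a dashed line at 0.25%, where 40 CON cells lie to the right and 71 to the left. On the right, percent of UMIs from 4 granular genes against UMIs per cell on a logarithmic axis, where the 2 UV and 2 Rux cells above the dashed line at 1% have few UMIs.

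Cells with at least 1% of UMIs from granular genes were found in the irradiated libraries and not in CON, and all 4 were shallow. Lor, Flg, Flg2 and Hrnr together made up at least 1% of UMIs in 0 of 111 CON cells (0 to 3.27%), 2 of 10 UV cells (20%, 2.52 to 55.6) and 2 of 13 Rux cells (15.4%, 1.92 to 45.4). The share in these 4 cells ran up to 2.04% in UV and 4.92% in Rux, while the highest CON cell had 0.0344%. Cells with fewer than 2000 genes numbered 0 in CON, 5 in UV and 4 in Rux, with median depths of 1697 and 2905 UMIs and median mitochondrial shares of 0.324% in UV and 0.611% in Rux, against 6.13% and 2.37% in the deeper cells of the same libraries. They held 76 of the 76 granular UMIs of UV and 182 of the 184 of Rux. The shallowest CON cell had 4498 UMIs. Low depth and low mitochondrial share thus went together in these cells, while most granular UMIs lay in a few of them. Single cells held 77.3% of the Lor UMIs of UV and 79.2% of those of Rux, and for Flg 64.1% and 80.9%. The part of depth in the difference was not tested.

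Set against basal keratinocytes of the same CON library, suprabasal cells had several genes at higher levels beyond those of the rule, named here after their values were seen. Krt77 was at 1613 CPM against 68.1 CPM in basal cells (log2 ratio 4.57, lower bound 4.42), Sbsn at 876 and 80.5, Mt4, a metallothionein of stratified epithelia, at 1166 and 76.8, Calm4 at 2405 and 274, Fabp5, a fatty acid carrier, at 1262 and 164, Elovl4 at 190 and 17.7, and Acer1, a ceramidase, at 115 and 9.40. Skint9 had 199 UMIs here and 12 in the 468 basal cells. Lower in suprabasal cells were Col23a1, a collagen with a transmembrane domain, at 12.5 and 179 CPM, Cdh13, at 101 and 577 CPM, and Itga3, an integrin chain, at 18.8 and 126 CPM. In all, 99 of 3189 genes (3.1%) were at least 2-fold higher than in basal cells and 128 (4.01%) at least 2-fold lower.

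Against upper follicle keratinocytes the differences were fewer and mostly downward. Of 3199 genes 11 (0.344%) were at least 2-fold higher in suprabasal cells and 66 (2.06%) at least 2-fold lower. Krt6a was at 9.10 CPM against 150 CPM (log2 ratio -4.00), Sprr1a, a small proline-rich envelope protein, at 21.0 and 180, Lor at 15.9 and 141, Krt17 at 213 and 1014, Areg, a ligand of the EGF receptor, at 34.7 and 154, and Spink5, an inhibitor of epidermal kallikreins, at 79.0 and 322. Higher in suprabasal cells were Skint7, at 134 and 36.5 CPM, Mt4, at 1166 and 419 CPM, and Ghr, the growth hormone receptor, at 203 and 98.6 CPM. Upper follicle cells were also deeper, with a median of 24412 UMIs.

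Between conditions, UMIs were summed over the suprabasal keratinocytes of each library, and a gene was compared where its mean over the 2 libraries reached 50 CPM and its UMIs in both together reached 20. Log2 ratios carry 0.5 UMI added to each sum, and a difference of at least 2-fold is the size used for counts. A gene below 50 CPM in 1 library can pass only by being higher in the other and so had to differ, and counts and medians of a list describe only the genes compared. From CON to UV 223 of 3127 genes (7.13%) were at least 2-fold higher and 198 (6.33%) at least 2-fold lower. From UV to Rux 433 of 3216 genes (13.5%) were higher and 234 (7.28%) lower, and from CON to Rux 243 of 3231 (7.52%) were higher and 115 (3.56%) lower. The median log2 ratio over the genes compared was 0.04, 0.06 and 0.11, with 52.1%, 53.8% and 58.2% of these genes above 0. Median-of-ratios size factors moved the counts to 203 higher and 221 lower for UV over CON and to 199 and 142 for Rux over CON. With equal weight for every cell Rux over CON had 281 higher and 237 lower. The counts moved further with thinning, the CPM minimum and the mitochondrial limit, as the last section gives. In sums as small as those of UV, counting error alone spreads ratios widely, so counts of genes are read here beside their intervals. The UV over CON and Rux over CON comparisons share the CON cells, and Rux over UV shares cells with both.

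Markers of the layer went in different directions between the libraries. Of the 14 suprabasal markers outside the rule 12 could be compared for UV over CON, 6 higher and 6 lower, with 2 at least 2-fold higher (background 7.13%) and 2 at least 2-fold lower (6.33%). Krt77, the lowest of them in both UV and Rux against CON, had 2837 UMIs in 101 of 111 CON cells, 90 in 2 of 10 UV cells and 249 in 4 of 13 Rux cells, or 1613 CPM (1554 to 1674), 719 (578 to 884) and 693 (610 to 785). CON lay above both others, with log2 ratios of -1.16 for UV (-1.49 to -0.86) and -1.22 for Rux (-1.41 to -1.03). In UV 46 of its 90 UMIs and in Rux 132 of its 249 lay in 1 cell, and over the alternative settings the ratio ran from -2.43 to -1.04 for Rux over CON and from -1.45 to 0.14 for UV over CON, the last with at most 5% mitochondrial UMIs. Krtdap, a secreted differentiation protein that the rule itself requires, was at 3782 CPM in CON (3692 to 3874), 3690 in UV (3361 to 4042) and 3691 in Rux (3495 to 3895). Dmkn was at 2178 CPM in CON (2110 to 2248), 1845 in UV (1615 to 2099) and 2155 in Rux (2006 to 2312). The Krtdap intervals overlapped in all 3 libraries, and the Dmkn interval of UV ended just below that of CON. Sbsn was at 876 CPM (832 to 921) in CON, 1230 (1043 to 1440) in UV and 1386 (1267 to 1514) in Rux, so CON was the lowest and UV and Rux overlapped. Lgals7, which binds galactosides and is abundant in stratified epithelium, was at 10134 CPM in CON, 20216 in UV and 13752 in Rux. In basal cells both Sbsn and Krtdap were higher in the irradiated libraries, unlike Krtdap in suprabasal cells. Basal Sbsn was at 80.5 CPM in CON, 469 in UV and 615 in Rux, and basal Krtdap at 265, 531 and 561 CPM. The basal keratins Krt5 and Krt14, on which the rule sets a limit, were at 1515 and 1673 CPM in CON, 3530 and 4888 in UV and 3989 and 6826 in Rux.

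Desmosome genes lay within 2-fold, while tight and gap junction genes were higher in Rux than in UV. Of 17 desmosome and adhesion genes listed, 13 could be compared in each contrast and none was 2-fold higher or lower in any, with medians of -0.06 for UV over CON, 0.14 for Rux over UV and 0.29 for Rux over CON. Dsp (desmoplakin, which ties desmosomes to keratin) was at 1537 CPM in CON, 1390 in UV and 1996 in Rux. Dsc3, a desmosomal cadherin, was at 1075, 1030 and 1044 CPM, and Perp, a desmosomal membrane protein, at 2584, 2165 and 2366 CPM. Of the tight and gap junction genes 9 of 9 compared were higher in Rux than in UV, 6 of them at least 2-fold (background 13.5%), with a median of 1.19, though 3 of the 9, Cldn4, Ocln and Gjb5, passed the minimum only through Rux. Cldn1, the main claudin of the epidermal barrier, was at 198 CPM in CON, 136 in UV and 356 in Rux. Cldn4 had 44 UMIs in 13 CON cells, 0 in UV and 43 in 8 Rux cells, at least 4.996-fold higher in Rux than UV if UV is set at the limit of 3 UMIs that a count of 0 allows.

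The JAK-STAT list bears on the treatment itself, since ruxolitinib acts on that pathway, and in the summed UMIs of all cells Irf1 and Socs3 were at their lowest in Rux. Irf1, a transcription factor of the interferon response, lies on the plus strand at chr11:53770014-53778374 (mm10, GENCODE M21). It had 296 UMIs in 69 of 111 CON cells, 10 UMIs in 3 of 10 UV cells and 4 UMIs in 4 of 13 Rux cells. Its level was 168 CPM in CON (150 to 189), 79.9 in UV (38.3 to 147) and 11.1 in Rux (3.03 to 28.5), so the Rux interval lay below both others. The log2 ratio was -3.75 for Rux over CON (-5.80 to -2.55) and -1.01 for UV over CON (-2.15 to -0.18), and the Rux over UV ratio of -2.74 (-4.97 to -1.05) rests on 14 UMIs, below the minimum set for a comparison.

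Socs3, the inhibitor that JAK-STAT signalling induces to limit itself, lies on the minus strand at chr11:117966079-117970047. It had 475 UMIs in 73 CON cells, 21 in 6 UV cells and 11 in 5 Rux cells. Its level was 270 CPM in CON (246 to 296), 168 in UV (104 to 256) and 30.6 in Rux (15.3 to 54.8), again with Rux below both others. The log2 ratio was -3.08 for Rux over CON (-4.15 to -2.29) and -2.42 for Rux over UV (-3.65 to -1.34). Of the 11 Rux UMIs 6 lay in 1 cell. Under the alternative settings tried both genes stayed lower in Rux than in CON, from -4.08 to -3.07 for Irf1 and from -3.93 to -2.27 for Socs3. The UV levels rest on few cells, since the deepest UV cell held 6 of the 10 Irf1 UMIs and 12 of the 21 Socs3 UMIs. Without the deepest cell of each library Irf1 was at 47.1 CPM in UV (12.8 to 121) and 11.8 in Rux (2.43 to 34.5), and Socs3 at 106 (48.5 to 201) and 39.3 (18.9 to 72.3), so that the intervals of UV and Rux overlapped for both. Among cells with at most 5% mitochondrial UMIs, and among those with at least 2% of Krt1 and Krt10, UV had 0 Irf1 UMIs. With upper limits of 145 and 166 CPM for UV, the order of UV and Rux could not be told there. In these 2 settings Socs3 was at 78.5 (9.51 to 284) and 89.8 CPM (10.9 to 325) in UV. In Rux it was at 33.4 (16.7 to 59.8) and 33.1 CPM (16.5 to 59.2), with intervals overlapping those of UV.

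The basal and upper follicle keratinocytes of the same libraries, which share no cell with the suprabasal ones and hold many more UMIs, also had their lowest level in Rux. In basal cells Irf1 was at 205 CPM in CON, 186 in UV and 49.1 in Rux, and Socs3 at 414, 315 and 48.0 CPM. The Rux over UV log2 ratios there were -1.92 (-2.21 to -1.63) for Irf1, from 139 and 369 UMIs, and -2.71 (-2.99 to -2.44) for Socs3, from 136 and 626 UMIs. In upper follicle cells, where Irf1 was highest in UV at 241 CPM against 180 in CON and 74.6 in Rux, the same ratios were -1.69 (-1.95 to -1.44) and -2.60 (-2.89 to -2.32). The suprabasal ratios had wider intervals that included these values, and no difference between the classes was tested.

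**Figure D3:**
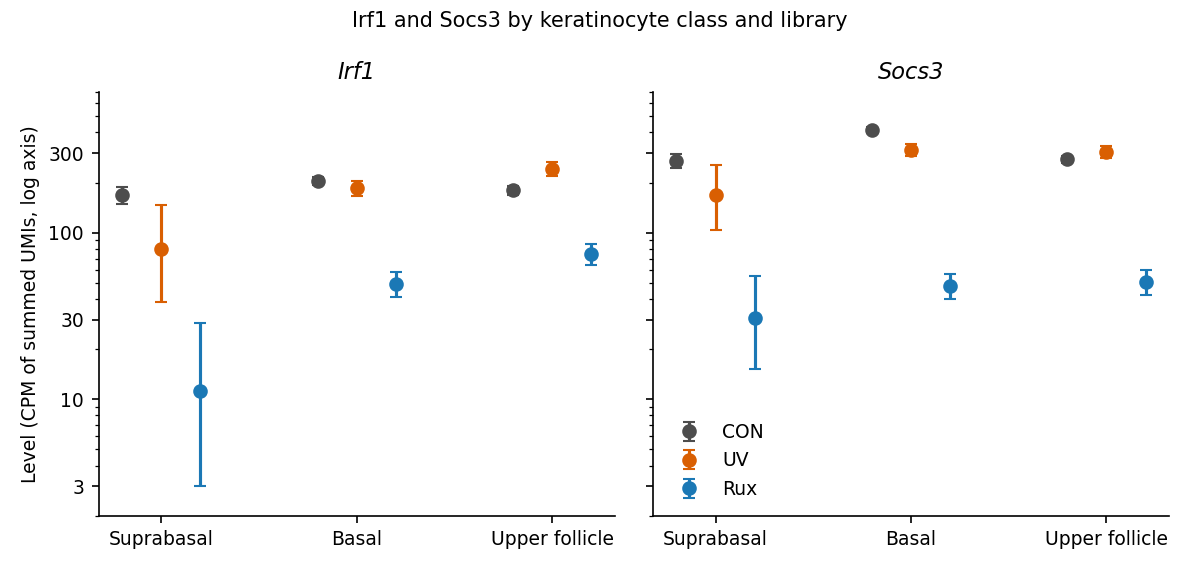
Level of Irf1 (left) and Socs3 (right) in CPM of summed UMIs on a logarithmic axis, by keratinocyte class and library, with 95% counting intervals (1 library each). In every class the Rux point lies below CON and UV, and in suprabasal cells Rux Irf1 rests on 4 UMIs and Rux Socs3 on 11.

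The promoters of these genes are shown because both were lower in Rux than in CON and a GAS motif, TTCNNNGAA, stands close to each RefSeq start site. The motif reads the same on both strands. The windows run from 250 bases before to 50 after the RefSeq start in GRCm38.p6, 5′ to 3′ along the gene, with the motif in capitals. The GENCODE span given above for Socs3 starts further upstream, at 117970047, so the Socs3 window and its motif lie inside that span. That of Irf1 is chr11:53769764-53770063 on the plus strand, the first of 2 windows listed for the gene, and its motif begins 90 bases before the start:
Irf1: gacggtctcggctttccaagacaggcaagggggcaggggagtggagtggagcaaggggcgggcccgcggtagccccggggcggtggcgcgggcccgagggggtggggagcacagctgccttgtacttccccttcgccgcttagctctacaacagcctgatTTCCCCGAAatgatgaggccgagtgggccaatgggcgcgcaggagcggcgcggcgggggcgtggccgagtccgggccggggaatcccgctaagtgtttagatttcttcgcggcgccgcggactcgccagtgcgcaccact
That of Socs3 is chr11:117969317-117969616 on the minus strand, and its motif begins 154 bases before the start:
Socs3: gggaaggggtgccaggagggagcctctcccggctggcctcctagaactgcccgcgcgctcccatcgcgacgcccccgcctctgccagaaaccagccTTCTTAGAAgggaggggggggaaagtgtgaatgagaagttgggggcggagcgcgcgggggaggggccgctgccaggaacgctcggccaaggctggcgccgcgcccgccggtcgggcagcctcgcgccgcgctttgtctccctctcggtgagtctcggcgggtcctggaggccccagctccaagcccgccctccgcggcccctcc
Of all 32851 promoter windows 8.30% held the motif, and of 39 listed JAK-STAT genes with a window 7 did, namely Bcl6, Cish, Ifnar1, Ifnar2, Il31ra, Irf1 and Socs3. The first share is of windows and the second count is of genes, which can have several windows, so the units are unlike. A match describes the letters only.

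Other members of the pathway did not all lie with Irf1 and Socs3. Bcl6, a repressor induced by STAT factors, was at 83.0 CPM in CON, 39.9 in UV and 25.1 in Rux (Rux over CON -1.66, -2.89 to -0.76), and Il20ra, a receptor chain for the IL-20 cytokines, at 87.0, 24.0 and 22.3 CPM. Stat3, which carries IL-6 family signals, was at 467, 351 and 273 CPM, within 2-fold in each contrast. Pim1, a kinase that STAT factors can induce, went the other way, at 121 CPM in CON, 31.9 in UV and 342 in Rux, with 123 Rux UMIs in 10 of 13 cells and no more than 38 in a cell. Jak1 and Jak2, the targets of the drug, were at 245 and 138 CPM in CON, 160 and 63.9 in UV and 259 and 281 in Rux. Of the 46 listed genes, 19 could be compared for Rux over CON, with 3 at least 2-fold higher (background 7.52%), 4 at least 2-fold lower (3.56%) and a median of -0.48 beside 0.11 over all genes. Of these 19, Irf1, Socs3, Bcl6 and Il20ra passed the minimum only through CON and 1 gene only through Rux. For Rux over UV 17 could be compared, with 5 at least 2-fold higher (background 13.5%), 4 at least 2-fold lower (7.28%) and a median of -0.35, where 4 passed only through Rux and 3 only through UV. For UV over CON the median was already -0.42 over 18 genes, with 1 at least 2-fold higher (7.13%) and 4 at least 2-fold lower (6.33%), where 4 passed only through CON and 1 only through UV.

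Interferon-stimulated and MHC class I genes were on the higher side in UV in the summed UMIs, a direction that 3 of the settings tried did not keep. All 10 compared were higher in UV than CON, 5 of them at least 2-fold (background 7.13%), with a median of 0.84, and 1, Xaf1, passed the minimum only through UV. Ifitm3, an antiviral membrane protein, was at 164 CPM in CON, 407 in UV and 348 in Rux. Psmb8, a subunit of the immunoproteasome, was at 53.5, 160 and 64.0 CPM. The MHC genes B2m and H2-K1 were at 886 and 672 CPM in CON, 1174 and 911 in UV and 1294 and 779 in Rux. From UV to Rux 8 of 11 were lower, 2 of them at least 2-fold (background 7.28%), with a median of -0.24, and Xaf1 again passed only through UV. The UV over CON median became -0.40 among cells with at most 5% mitochondrial UMIs and -0.07 with equal weight for every cell, and lay just below 0 with at least 2% of Krt1 and Krt10, while the Rux over UV median became 0.71, 0.09 and 0.58 in turn.

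Krt6a, Krt6b and Sprr1b of the stress and wound list were higher in both irradiated libraries than in CON in the summed UMIs, those of Krt6b and Sprr1b in UV mainly through shallow cells, while Krt17 was lower in UV than in CON. Krt6a, the keratin of wounded and hyperproliferative epidermis (chr15:101689910-101694307, minus strand), had 16 UMIs in 7 CON cells, 39 in 7 UV cells and 231 in 7 Rux cells, or 9.10 CPM (5.20 to 14.8), 312 (222 to 426) and 643 (563 to 732). The CON level lay far below the others, with log2 ratios of 5.07 for UV (4.22 to 6.04) and 6.1 for Rux (5.41 to 6.97). One Rux cell, the deepest, held 172 of the 231 UMIs, and without the deepest cell of each library the Rux over UV ratio of 1.03 became -0.71, and with equal weight for every cell -0.58. In basal cells Krt6a was at 67.7, 770 and 1058 CPM.

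Krt6b, its neighbour at chr15:101676023-101680287 and a close copy whose reads the counting may have divided, had 0 UMIs in CON, 29 in 5 UV cells and 74 in 3 Rux cells. With CON at the limit of 3 UMIs over the library it was at least 136-fold higher in UV and at least 121-fold higher in Rux. The exact counting interval, which also carries the error of the higher count, began at log2 ratios of 6.69 for UV and 6.58 for Rux. All 29 UV UMIs lay in cells with fewer than 2000 genes, and 53 of the 74 Rux UMIs in the deepest cell. In basal cells it had 0, 35 and 203 UMIs.

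Sprr1b, a small proline-rich precursor of the cornified envelope, was detected in 15 of 111 CON cells, 7 of 10 UV cells and 12 of 13 Rux cells, at 56.9 CPM (46.3 to 69.2), 455 (345 to 590) and 880 (785 to 982). The Rux over CON ratio was 3.95 (3.62 to 4.29). In UV 53 of its 57 UMIs came from the shallow cells, and among cells with at least 2000 genes UV lay at 34.7 CPM and Rux at 818. Krt16, a partner of Krt6a, was at 593, 407 and 1342 CPM, and with only the deeper cells at 593, 60.7 and 1324, while equal weight for every cell put Rux below UV, at a log2 ratio of -1.21. The order of UV and CON for Krt16 turned with the setting, from -3.19 for UV over CON among the deeper cells to 2.43 with equal weight for every cell. Krt17 was lower in UV than in CON, at 213, 47.9 and 148 CPM. Of 33 stress and wound genes 9 could be compared for UV over CON, 7 at least 2-fold higher (background 7.13%) and 1 at least 2-fold lower (6.33%), with a median of 3.01, and 9 for Rux over CON, 7 at least 2-fold higher (7.52%), with a median of 1.25. In each of these contrasts 4 of the 9 genes, Krt6a and Krt6b among them, passed the minimum only through the irradiated library, and for UV over CON 1, Krt17, only through CON. Among the deeper cells the UV count became 3 higher and 2 lower of 6 with a median of 1.00, while the Rux count stayed at 7 of 9.

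Granular products stood apart because of the shallow cells described above. Flg had 3 UMIs in CON, 39 in UV and 68 in Rux, and Lor 28, 22 and 101. In cells with at least 2000 genes Flg had 0 UMIs in UV and 0 in Rux, and Lor 0 and 2. Of the cornified envelope list, 4 of 7 genes compared were at least 2-fold higher in UV than CON (background 7.13%) with a median of 1.34, 3 of the 7 (Lor, Flg and Cnfn) having passed the minimum only through UV, and among the deeper cells 0 of 4 with a median of -0.26. Krt2, a keratin of late suprabasal cells, had 68 UMIs in Rux of which 65 lay in 1 cell.

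Cstdc5 and Stfa3, genes of the stefin A cluster of cysteine protease inhibitors, were highest in UV. Cstdc5 was found in 47 of 111 CON cells, all 10 UV cells and all 13 Rux cells, at 185 CPM (166 to 207), 4984 (4601 to 5391) and 1289 (1174 to 1412). UV lay above Rux and Rux above CON, with log2 ratios of 4.75 for UV over CON (4.55 to 4.95), -1.95 for Rux over UV (-2.13 to -1.78) and 2.80 for Rux over CON (2.59 to 3.01). Shallow cells held 435 of the 624 UV UMIs, and among deeper cells the levels were 185, 1638 and 1152 CPM, with UV over CON at 3.15. Stfa3, a stefin of the same family, was at 164, 1621 and 390 CPM, in 54, 10 and 10 cells, with 119 of its 203 UV UMIs in shallow cells and 728 CPM among the deeper UV cells. Family members share sequence, so reads may have been divided among them. Fabp5 was at 1262, 4729 and 1704 CPM, with 1262, 1768 and 1580 among the deeper cells, so most of its UV excess came from the shallow cells. Calml3, a calmodulin-like protein of the epidermis, had 6, 27 and 19 UMIs, of which shallow cells held 15 in UV and 15 in Rux.

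Immediate-early genes, which stimulated cells switch on within minutes and many of which encode transcription factors, were lower in UV cells. Of 28 listed, 22 could be compared for UV over CON. Of these 21 were lower and 15 at least 2-fold lower (background 6.33%), with a median of -1.35 beside 0.04 over all genes. Of the 22, 5 passed the minimum only through CON. Fos was at 1580 CPM in CON (1521 to 1639), 655 in UV (521 to 813) and 1425 in Rux (1305 to 1554). Fosb was at 787, 152 and 1161 CPM and Atf3 at 1389, 312 and 1066 CPM. For each of these UV was the lowest and Rux close to or above CON. Single cells held 45.1% of the Fos UMIs of UV and 38.1% of those of Rux. For Fosb they held 52.6% and 45.1%, against no more than 6.72% in CON for either gene. The 5 deeper UV cells had 37, 1, 3, 5 and 32 Fos UMIs, so the UV level rests on few and unlike cells. Fosl1, an AP-1 subunit of wound edges, had 283 UMIs in 64 CON cells, 2 in 1 UV cell and 130 in 8 Rux cells.

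From UV to Rux all 21 immediate-early genes compared were higher, 18 of them at least 2-fold (background 13.5%), with a median of 1.36, and 4 of the 21 passed the minimum only through Rux. The deeper cells alone gave 20 of 21 lower with a median of -1.43 for UV over CON, beside 1389 of all 3173 genes. They gave 22 of 22 higher with a median of 1.31 for Rux over UV, beside 1653 of 3254. In these deeper cells the median mitochondrial share was 3.73% in CON, 6.13% in UV and 2.37% in Rux, and its part was not tested. Basal cells of the same libraries did not show this pattern. For UV over CON 16 of 26 were higher there, beside 1964 of all 3379 genes, with a median of 0.17. For Rux over UV 21 of 26 were lower, beside 1905 of 3420, with a median of -0.37. In upper follicle cells 21 of 27 were lower for UV over CON, beside 1495 of 3352, with a median of -0.36. Of the 27, 1 was at least 2-fold lower, beside 135 of 3352. For Rux over UV 16 of 26 were higher there, beside 1858 of 3451, with a median of 0.05. The difference between the classes was not tested. In CON the list also differed between the cells with and without basal keratin. These genes respond to tissue dissociation as well as to stimulation in the skin, and the part of the preparation was not tested.

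Hbegf and Epgn, ligands of the EGF receptor, were also lowest in UV. Hbegf was at 244 CPM in CON (221 to 268), 39.9 in UV (13.0 to 93.2) and 398 in Rux (336 to 469), in 69, 2 and 9 cells. Areg (amphiregulin) had 61, 1 and 68 UMIs, and Epgn (epigen) 106, 0 and 100. Of the Areg UMIs of Rux 39 of 68 lay in 1 cell, and the UV interval of Areg (0.202 to 44.5 CPM) overlapped that of CON (26.5 to 44.6). Epgn was at least 11.6-fold higher in Rux than at the 3-UMI limit of UV. Of 17 genes of the EGF receptor axis 6 could be compared for Rux over UV, all 6 were higher and 4 at least 2-fold (background 13.5%), with a median of 2.48, but Areg, Hbegf and Epgn, 3 of the 6, passed the minimum only through Rux. The receptor Egfr was at 168, 184 and 362 CPM.

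Inflammatory genes were likewise higher in Rux than in UV. Of 37 listed, 16 could be compared, 11 at least 2-fold higher (background 13.5%) and 2 at least 2-fold lower (7.28%), with a median of 1.74. Of the 16, 7 passed the minimum only through Rux and 2 only through UV. Cxcl1, a neutrophil chemokine, was at 64.3 CPM in CON (52.95 to 77.3), 55.9 in UV (22.5 to 115) and 568 in Rux (493 to 651), and found in 11 of 13 Rux cells, though 165 of its 204 UMIs lay in 1 cell. Cxcl2 had 51 of its 68 Rux UMIs in 1 cell. Ptgs2, the inducible prostaglandin synthase, was at 64.3, 31.9 and 189 CPM, with no more than 17 of 68 Rux UMIs in a cell. For UV over CON, 6 of 12 inflammatory genes were at least 2-fold lower (background 6.33%) and 2 at least 2-fold higher (7.13%), with a median of -0.76 that became 1.50 with equal weight for every cell and 0.07 among cells with at most 5% mitochondrial UMIs. Of the 12, 4 passed the minimum only through CON and 1 only through UV. Those 4 included Icam1, an adhesion ligand for leukocytes, at 107 and 16.0 CPM, and Il33, an alarmin kept in the nucleus, at 101 and 31.9 CPM. Tnfaip3, an NF-kB inhibitor, was at 312, 79.9 and 393 CPM.

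**Figure D4:**
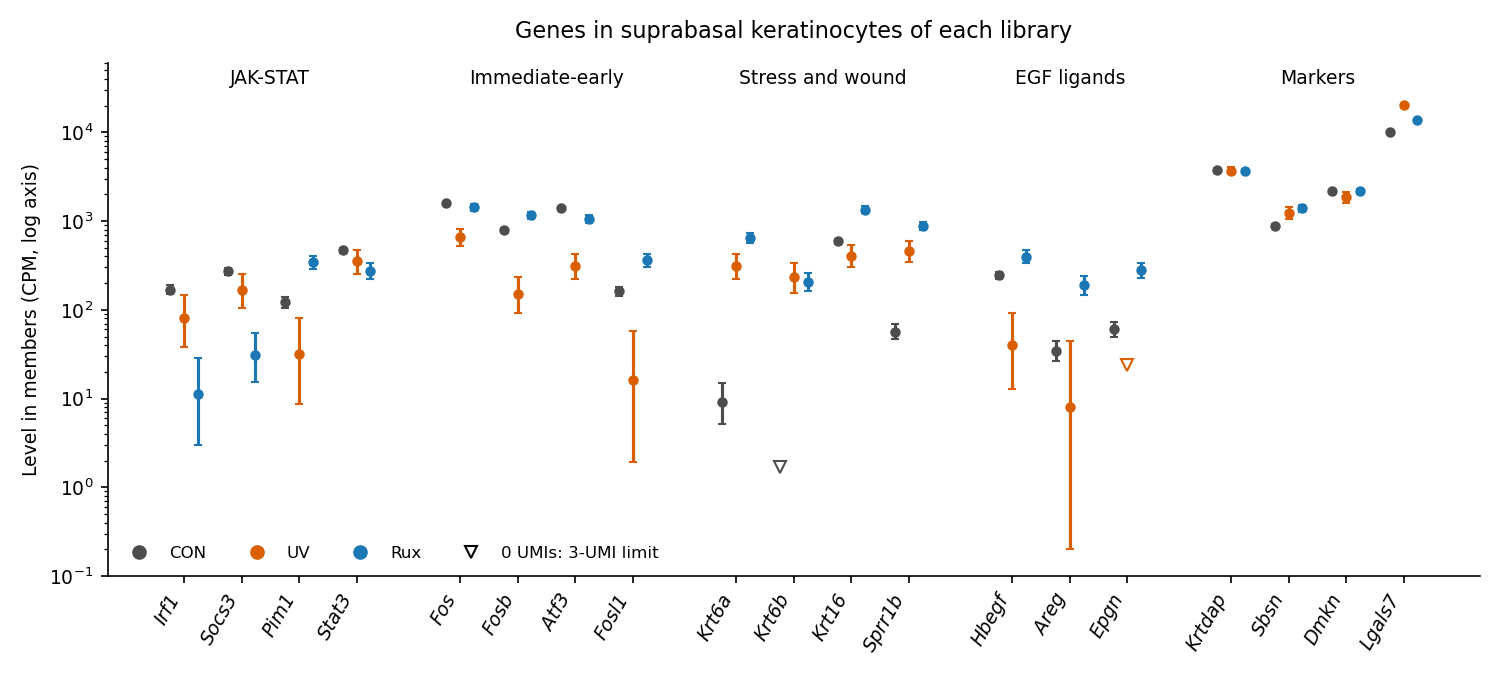
Level in CPM on a logarithmic axis of 19 genes in suprabasal keratinocytes of CON, UV and Rux (1 library each), with 95% counting intervals, and open triangles at the 3-UMI limit for a library with 0 UMIs. The points of Irf1 and Socs3 are lowest in Rux, those of the immediate-early genes and EGF ligands lowest in UV, and those of Krt6a, Krt6b and Sprr1b lowest in CON.

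The 10 genes with the firmest increase from CON to UV, by the lower bound of the counting interval among genes seen in at least 10 UV cells and therefore in all of them, were Cstdc5, Stfa3, Fabp5, Higd1a, Lgals7, Blmh, Gapdh, mt-Co3, Mif and Rpl41. Higd1a, a mitochondrial protein of hypoxic cells, was at 279 CPM in CON and 847 in UV. Blmh (bleomycin hydrolase, which breaks down filaggrin peptides) was at 75.6 and 200 CPM. mt-Co3 was at 6106 CPM in CON, 9345 in UV and 4020 in Rux, and so moved with the mitochondrial share of the deeper UV cells. Its UV over CON ratio of 0.61 became -0.33 with equal weight for every cell, -0.51 with at most 5% mitochondrial UMIs and -0.69 with at least 2% of Krt1 and Krt10. The 10 firmest in the other direction were Abtb2, Igfbp3, Nod2, Pkib, Skint7, Fosb, Atf3, Fosl1, Hbegf and Pde4b. Abtb2 had 229 UMIs in 46 CON cells and 0 in UV, at least 5.43-fold lower at the 3-UMI limit, and Nod2, a sensor of bacterial peptidoglycan, had 207 and 0, at least 4.91-fold lower. Igfbp3, an IGF binding protein, had 395 UMIs in 50 CON cells and 1 in UV, with 92 of the CON UMIs in 1 cell. Pde4b, a cyclic AMP phosphodiesterase, was at 472 and 112 CPM.

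From UV to Rux the 10 genes with the highest lower bounds included Serpinb2, Fosb, Pim1, Cxcl1, Nr4a1, Eppk1, Dcn, Map3k8 and Cdkn1a. Serpinb2, a plasminogen activator inhibitor of stressed keratinocytes, was at 795 CPM in CON, 248 in UV and 2163 in Rux (Rux over UV 3.1, 2.61 to 3.69). Eppk1 (epiplakin, which binds keratins) was at 146, 47.9 and 334 CPM, and Cdkn1a (p21, a p53 target) at 350, 144 and 610 CPM. The Dcn value rests on the 1 Rux cell named above. The 10 firmest decreases were Cstdc5, Stfa3, Fabp5, mt-Co3, Higd1a, Cmss1, AY036118, Fam25c, Rpl37a and Lgals7.

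From CON to Rux the 10 firmest increases were Sprr1b, Cxcl2, Cxcl1, Cstdc5, S100a6, Serpinb2, Ifrd1, Pim1, Pls3 and Lgalsl. Those of Cxcl1 and Cxcl2 rest largely on 1 Rux cell each, and over the settings ran from 1.40 to 4.42 and from 2.09 to 5.06. S100a6, a calcium-binding protein, was at 284 CPM in CON, 1006 in UV and 1127 in Rux, although it turned lower in UV than CON when members needed at least 2% of Krt1 and Krt10. The 10 firmest decreases were Skint7, Irf1, Txnip, Pkib, Socs3, Clca3a2, Dlg2, Krt15, Id1 and Lrp4. Skint7 had 236 UMIs in 87 of 111 CON cells and 1 UMI in each of UV and Rux. It was also lower in the basal cells, with 244 UMIs in CON, 5 in UV and 0 in Rux. Txnip, an inhibitor of thioredoxin, was at 510 CPM in CON (477 to 545), 248 in UV (168 to 351) and 58.5 in Rux (36.2 to 89.4). In basal cells it was lowest in UV, at 637, 177 and 257 CPM. Krt15 was at 1215, 1070 and 256 CPM, with 84 of its 92 Rux UMIs in 1 cell. Trp63 (p63, the regulator of stratified epithelia, a listed differentiation factor) was at 405, 335 and 91.9 CPM, and Thbs1, a matrix glycoprotein, at 70.5, 24.0 and 532.

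The remaining lists were mixed. Of the differentiation transcription factors, 2 of 23 were at least 2-fold lower in UV than CON (background 6.33%), among them Ovol1 at 210 and 55.9 CPM, and none was 2-fold higher. Of the 23, 1 passed the minimum only through CON. Klf4, which drives barrier formation, was at 952, 743 and 1133 CPM. Barrier lipid genes were higher in Rux than CON in 10 of 10 compared, beside 58.2% of all genes, with a median of 0.77. Of the 10, 1 was at least 2-fold higher (background 7.52%), Ugcg (glucosylceramide synthase) at 55.7 and 167 CPM. From UV to Rux 4 of 11 were at least 2-fold higher (background 13.5%), where 2, Cers3 and Ugcg, passed the minimum only through Rux and 1 only through UV. Abca12, the lipid transporter of lamellar granules, was at 425, 335 and 771 CPM. Heat shock and unfolded protein genes had medians of -0.11, 0.59 and 0.38 for UV over CON, Rux over UV and Rux over CON, antioxidant genes 0.21, 0.20 and 0.36, p53 targets -0.04, 0.75 and 0.59, DNA repair genes 0.34, 0.07 and -0.05, and glucocorticoid and clock genes -0.21, 0.18 and -0.17. Of the p53 targets 3 of 9 were at least 2-fold lower in UV than CON (background 6.33%), where 2 of the 9 passed the minimum only through CON, and 4 of 11 at least 2-fold higher in Rux than in UV (13.5%), where 5 of the 11 passed the minimum only through Rux. Epidermal proteases and inhibitors had medians of -0.16, 0.09 and 0.01, basal and hemidesmosome genes -0.17, 0.14 and 0.03, and suprabasal markers outside the rule 0.06, 0.35 and 0.55. Cell cycle genes allowed comparison of 4, 5 and 3 genes and antimicrobial genes of 2 in each contrast. The study names 34 genes for keratinocytes, a list chosen on these samples and so not independent. For UV over CON 18 could be compared, with 1 at least 2-fold higher (background 7.13%) and 7 at least 2-fold lower (6.33%). Of the 18, 3 passed the minimum only through CON. For Rux over UV 20 could be compared, with 9 at least 2-fold higher (13.5%), and 6 of the 20 passed only through Rux. The list joins genes that the study reports as lowered by ruxolitinib, such as Irf1, with genes reported as raised, such as Thbs1. These counts therefore cannot be set against the directions the study gives.

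**Figure D5:**
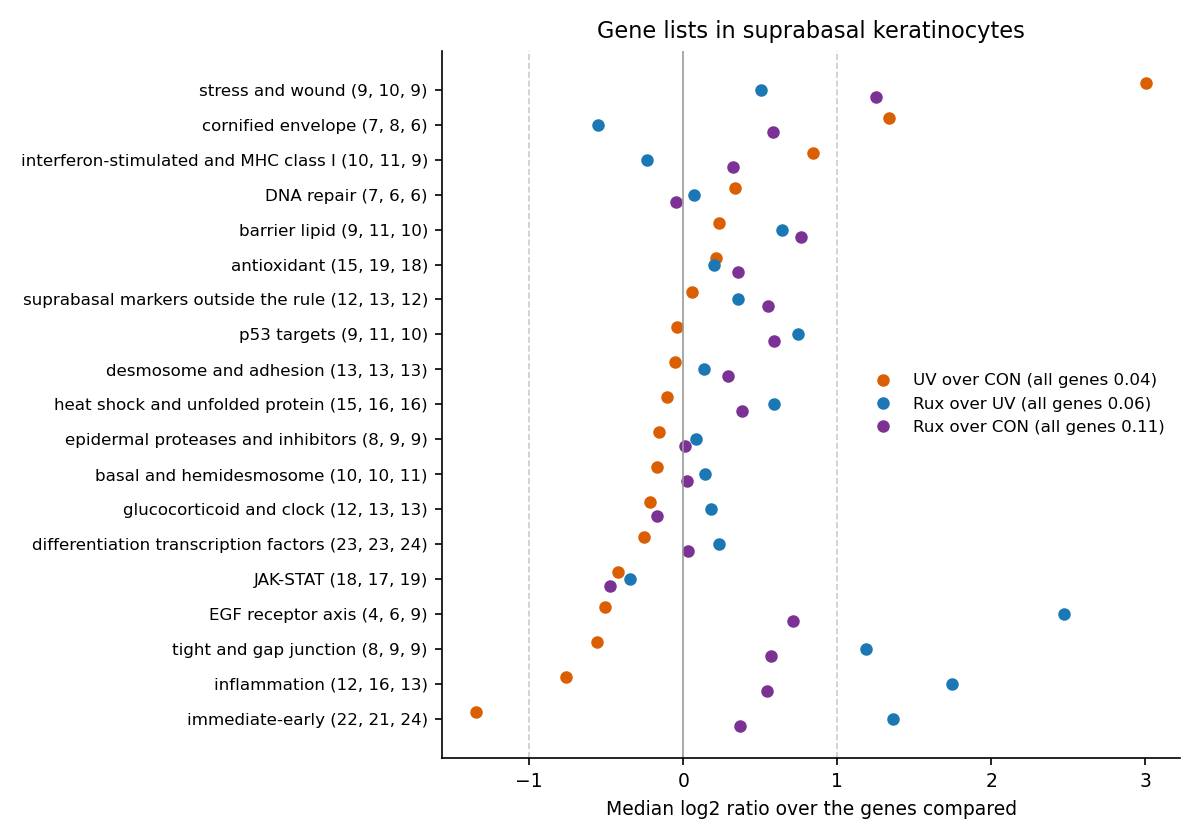
Median log2 ratio over the genes compared of 19 gene lists in suprabasal keratinocytes for 3 contrasts between libraries, with the number of genes compared for UV over CON, Rux over UV and Rux over CON in parentheses and dashed lines at 2-fold. Immediate-early genes lie lowest for UV over CON at -1.35 and above 1 for Rux over UV, and stress and wound genes lie highest for UV over CON at 3.01.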

How the data were processed

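Dissociated dorsal skin of 3 mouse libraries (CON, UV and Rux, 1 each) was analysed. The authors deposited raw UMI counts per gene and cell barcode, made with Cell Ranger on mm10 (version 6.1.2 per the submitters' notes, 7.0.0 per the file headers), with no normalization. Deposited cells numbered 13170, 12411 and 11287, and those with 500 or more genes and no more than 10% of UMIs from mitochondrial genes were retained. Members and gene lists were chosen with earlier results of these data known, and the 0.25% limit on Krt5 and Krt14, the 2000-gene limit and 3 alternatives after seeing the values.

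Basal cells had at least 1% of UMIs from Krt5 and Krt14, more than from Krt1 and Krt10, fewer than 3 of the 6 upper follicle genes and fewer than 2 of Lgr5, Lhx2, Cd34, Postn, Krt75 and Fgf18. Upper follicle cells had at least 1% from the 4 keratins and at least 3 of the 6 genes. Fibroblasts had at least 1% from Col1a1, Col1a2 and Col3a1. All had 0 Ptprc UMIs. UMIs were summed over the cells of a class and library and divided by the sum (CPM). Intervals are exact Poisson for CPM, Clopper-Pearson for shares and exact binomial for ratios. They cover counting error only. Named genes were, per contrast, the 10 with the highest lower bound and the 10 with the lowest upper bound among genes seen in at least 10 cells where higher, those at least 2-fold different or among the 4 highest in each of 22 lists, the markers and genes the study names. Some of them are not reported here. Genes in the divisions of CON cells and in the class comparisons were named after their values were seen. Doublets were kept, and removed in an alternative with Scrublet scores (scanpy 1.11.5) at 0.8% per 1000 cells. The ratio script was tested on simulated data. Python 3.11.15, numpy 2.4.6 and scipy 1.17.1 were used.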

Additional observations from a re-analysis of the deposited data

Results flagged for a closer look

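The samples are described as female, but Ddx3y, a Y-linked gene, stood at 110 CPM in the retained cells of CON, 116 in UV and 122 in Rux, and Xist had 19, 14 and 13 UMIs. The suprabasal keratinocytes had 162, 14 and 40 Ddx3y UMIs and 0 of Xist.

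Suprabasal and basal keratinocytes of the same libraries differed in sign for several results; these differences were not tested. The median log2 ratio of the immediate-early genes for UV over CON was -1.35 in suprabasal and 0.17 in basal cells, and for Rux over UV 1.36 and -0.37. That of the inflammation genes for Rux over UV was 1.74 and -0.41. Abtb2 had 0 UMIs in suprabasal UV cells, so its ratio takes its size from the fraction of a UMI added to each sum. Over the settings tried, that suprabasal ratio for UV over CON ran from -5.07 to -1.72, so only its direction is read here. Its main value was -5.03 in suprabasal cells, against 1.30 in basal cells. Cdkn1a for UV over CON was at -1.25 and 1.02, Krt17 at -2.04 and 1.89, and Lrp4 at 1.37 and -1.88. For Lrp4, 31 of the 37 suprabasal UV UMIs lay in 1 cell, and the suprabasal value was -2.53 with at most 5% mitochondrial UMIs and -2.71 with at least 2% of Krt1 and Krt10. For Rux over UV, Areg was at 3.99 and -1.10 and Icam1 at 2.27 and -1.17. Suprabasal UV cells held 1 Areg and 2 Icam1 UMIs, and both genes passed the minimum only through Rux. In Rux 39 of 68 Areg and 18 of 34 Icam1 UMIs lay in 1 cell. After thinning, suprabasal Icam1 was at -0.87, the basal direction. For Rux over CON, Ifitm3 was at 1.09 and -1.14.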

How the results depend on the processing

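Gene lists and gene ratios were recomputed under 17 settings, 3 of them chosen after seeing the data. No paired analysis was possible because each group had 1 library, and for the same reason no replicate could be left out. Of 1117 alternative list medians 867 moved by less than 0.25, 246 by more and 4 turned from past 2-fold to the other sign, and of 4686 alternative gene ratios 3938 stayed within their counting interval, 720 moved beyond it and 28 turned likewise. The cause was not tested unless the setting itself removes cells or genes.

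With at least 2% of Krt1 and Krt10, the share of suprabasal cells was 0.410% in CON and 0.0363% in UV. Thinning members to 3000 UMIs keeps 6 UV and 11 Rux cells, and the share of UV members with at least 1% granular UMIs was then 0%. This was fixed beforehand, since the UV cells above 1% had 1517 and 1106 UMIs and were removed. A Rux cell above 1%, with 3029 UMIs, was deep enough to stay. The genes at least 2-fold higher and lower for UV over CON numbered 661 and 559 with at most 5% mitochondrial UMIs, 582 and 439 with at least 2% of Krt1 and Krt10, 454 and 572 with equal weight per cell, 830 and 1025 with no CPM minimum and 78 and 75 at a minimum of 100 CPM, and 459 were higher after thinning. Rux over UV had 42 and 26 after thinning and 209 and 90 at 100 CPM. Rux over CON had 369 and 251 after thinning, 676 and 777 with no CPM minimum, 128 and 40 at 100 CPM, 237 lower with equal weight and 389 higher with the cells above and below 0.25% of Krt5 and Krt14 weighted as in CON. Equal weight moved the median of all genes to -0.24 for UV over CON, 0.21 for Rux over UV and -0.05 for Rux over CON, from 0.04, 0.06 and 0.11.

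The following turned sign. With at most 5% mitochondrial UMIs, Krt77 was at 0.14, Lrp4 at -2.53 and S100a6 at -0.34 for UV over CON, and Krt16 at -0.30, Trp63 at 2.24, Lrp4 at 0.00941 and Cers3 at -0.67 for Rux over UV. With at least 2% of Krt1 and Krt10, Lrp4 was at -2.71 and S100a6 at -0.58 for UV over CON, and Trp63 at 2.08 and Cers3 at -0.78 for Rux over UV. Dcn was at -0.17 for Rux over CON without doublets, and for UV over CON at 0.94 with at least 0.5% of Krt1 and Krt10 and 0.15 with equal weight. For Rux over UV equal weight put Krt6a at -0.58 and Krt16 at -1.21, and leaving out the deepest cell put Krt6a at -0.71. The cornified envelope median for UV over CON was -0.29 with granular cells weighted as in CON, -0.10 after thinning, -0.28 at 100 CPM and -0.26 in cells with at least 2000 genes. With granular cells weighted as in CON, Lor was at -1.99 for UV over CON and -0.0615 for Rux over CON, where Flg was at -0.50. In cells with at least 2000 genes Sprr1b was at -0.55 and Lor at -1.90 for UV over CON, and Flg at -0.47 and Lor at -1.17 for Rux over CON. After thinning Nr4a1 was at 0.17 for UV over CON, and Icam1 at -0.87, Ovol1 at -0.22 and Cers3 at -0.14 for Rux over UV. Depth limits the UV cells most: 3 UMIs, the limit used here for a count of 0, are 3 of 125198 there.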
